A study of Mus musculus with 38 samples.

Results

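Nodal, the co-receptor gene Tdgf1 and the feedback inhibitor genes Lefty1, Lefty2 and Cer1 were followed in gonocytes, the germ cells of the fetal mouse testis. The members were picked by gene symbol and were 5 of the 27633 genes counted in the Inhba animals. Of these, 4 were among the 9798 genes kept for the Inha animals, where Cer1 was not listed. RNA had been sequenced from 19 animals with 38 sequencing records, and 15 of the animals belonged to the Inhba cross. At E15.5 there were 4 Inhba KO and 4 Inhba WT animals, and at E13.5 there were 4 Inhba KO and 3 Inhba WT animals. A further 2 Inha KO and 2 Inha WT animals were littermate pairs of E13.5. Every animal carried the Oct4-Gfp reporter on the labelled strain C57/Bl6/129svJ, and gonocytes were the GFP-positive fraction of a FACS sort. The KO was of the germline, from heterozygous matings, so that all cells of the embryo lacked the gene and not gonocytes alone. Inhba encodes the activin A subunit and Inha the inhibin alpha subunit, and both proteins are known as products of the somatic cells of the testis. The genotype field of the sample records went against the sample title for E13.5 KO replicate 1 and for all 4 E15.5 WT animals, and the titles were followed.

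Nodal is a secreted ligand of the TGFβ superfamily. It binds the activin receptors together with an EGF-CFC co-receptor such as CRIPTO, the product of Tdgf1, and the receptors phosphorylate SMAD2 and SMAD3, which enter the nucleus with SMAD4 and act with partners such as FOXH1. Lefty1 and Lefty2 are targets of the pathway and encode secreted inhibitors that bind Nodal or its co-receptor, which closes a negative feedback loop. Cer1 encodes Cerberus, a secreted antagonist that binds Nodal and BMPs. In the fetal testis Nodal signalling is known to be active in germ cells for a short period around the start of male differentiation.

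Total counts were 8466087 to 40600907 per Inhba animal, and 3 counts equalled 0.0739 to 0.354 cpm, a gene's counts scaled to the total of its animal. In the Inha animals the totals of the kept genes were 6320539 to 11917167, with 3 counts at 0.252 to 0.475 cpm. Inhba itself had 1 to 27 counts per animal. At E13.5 the libraries labelled KO held 6 to 12 Inhba counts and those labelled WT 1 to 4, opposite to the labels but close to the floor, and the position of the deletion was not given in the sources used here. These counts gave no check of the genotypes, which are those of the labels. Per the study's methods, embryos were genotyped from tail tissue. The paper also reported that Inhba was absent from the somatic fraction of knockout animals, which was not analysed here. It reported that the Inha genotypes were verified by qRT-PCR in somatic cells. The first principal component of all other genes held 82.7% of the variance and separated the ages. E13.5 KO replicate 3 lay at -77.5 on it, against -123 to -113 for the other E13.5 animals, and E15.5 KO replicate 4 lay at 39.7, against 69.7 to 144 for the other E15.5 animals, so both lay nearest to the other age. Germ cell markers summed to 4023 to 4560 cpm in E15.5 KO, 4306 to 4479 cpm in E15.5 WT, 2919 to 3351 cpm in E13.5 KO and 3024 to 3238 cpm in E13.5 WT animals. The 10 Sertoli cell markers summed to 7.07 to 24.6, 18.4 to 37.7, 9.17 to 66.2 and 6.01 to 21.8 cpm in the same 4 groups.

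Sequence bears on how well 3 of the members can be counted. Lefty1 and Lefty2 are neighbours on chromosome 1 with 35918 bases between them, and their coding sequences of 1107 bases each were 92.3% identical over 1105 aligned bases. Of the 1028 windows of 80 bases in each coding sequence, the read length of the Inhba libraries, 153 windows or 14.9% were the same in both genes. At 100 bases, the read length of the Inha libraries, 73 of 1008 windows or 7.24% were the same. Over the whole transcripts, 9.93% of the Lefty1 and 6.39% of the Lefty2 windows of 80 bases were the same. The 80 coding bases with the most differences are shown because reads there tell the genes apart. Capitals mark the 21 bases that differ, at chr1:180935242-180935321 of GRCm38 for Lefty1 and chr1:180893316-180893395 for Lefty2, both on the plus strand.
Lefty1: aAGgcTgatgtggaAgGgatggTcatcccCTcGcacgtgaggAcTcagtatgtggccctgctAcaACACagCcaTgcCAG
Lefty2: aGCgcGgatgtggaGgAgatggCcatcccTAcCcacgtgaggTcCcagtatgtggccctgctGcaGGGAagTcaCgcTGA

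Tdgf1 has a processed pseudogene, Tdgf1-ps1, at chr16:3730510-3731022, which was identical at 506 of 512 aligned bases (98.8%). Of its 434 windows of 80 bases, 146 or 33.6% were also in the Tdgf1 transcript. Of the 1853 windows of the Tdgf1 transcript itself, 7.88% were shared with the pseudogene. The stretch of 80 bases with the most differences holds 3 of them, in capitals, at chr9:110940740-110940819 on the minus strand for Tdgf1 and chr16:3730910-3730989 on the plus strand for the pseudogene.
Tdgf1: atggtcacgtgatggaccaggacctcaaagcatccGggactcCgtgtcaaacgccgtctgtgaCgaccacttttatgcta
Tdgf1-ps1: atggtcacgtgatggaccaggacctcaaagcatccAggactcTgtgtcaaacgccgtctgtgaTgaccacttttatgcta
Tdgf1-ps1 was counted as a gene of its own. It had 0, 4, 4 and 14 counts in E15.5 KO animals, 12, 1, 10 and 2 in E15.5 WT animals, 63, 81, 59 and 39 in E13.5 KO animals, and 60, 93 and 49 in E13.5 WT animals. Its counts were thus higher in every E13.5 animal than in any E15.5 animal, as were those of Tdgf1, and whether they came from the pseudogene or from Tdgf1 reads was not tested. No member overlapped another annotated gene.

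Of the 5 members, 4 fell with age in gonocytes of both genotypes. Nodal, Tdgf1, Lefty1 and Lefty2 were each higher in every E13.5 animal than in any E15.5 animal, and this held in the KO and in the WT. The share of all genes that separate the ages in this way was not counted. In edgeR's quasi-likelihood test they were called at E15.5 against E13.5 in the KO, where 54.3% of the 14676 genes tested were called, with 29.1% rising and 25.2% falling. The same 4 of the 5 were called in the WT, where 62.1% of the 15380 genes tested were called, with 34% rising and 28.1% falling. A call was an adjusted p under 0.05 with a change above 1.5-fold. A fall as such was therefore common among genes, and the rank of each member's fall among all genes tested is given with it below. Tdgf1 in both genotypes and Lefty1 in WT passed the limit on low levels only through their E13.5 animals, so that only a fall could be called, while Nodal and Lefty2 also had E15.5 animals above it in each genotype. Testing all genes with a count gave the same 4 calls in both genotypes. Sorted gonocytes were measured in bulk, so that fewer cells with a transcript and less of it per cell cannot be told apart.

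**Figure D1:**
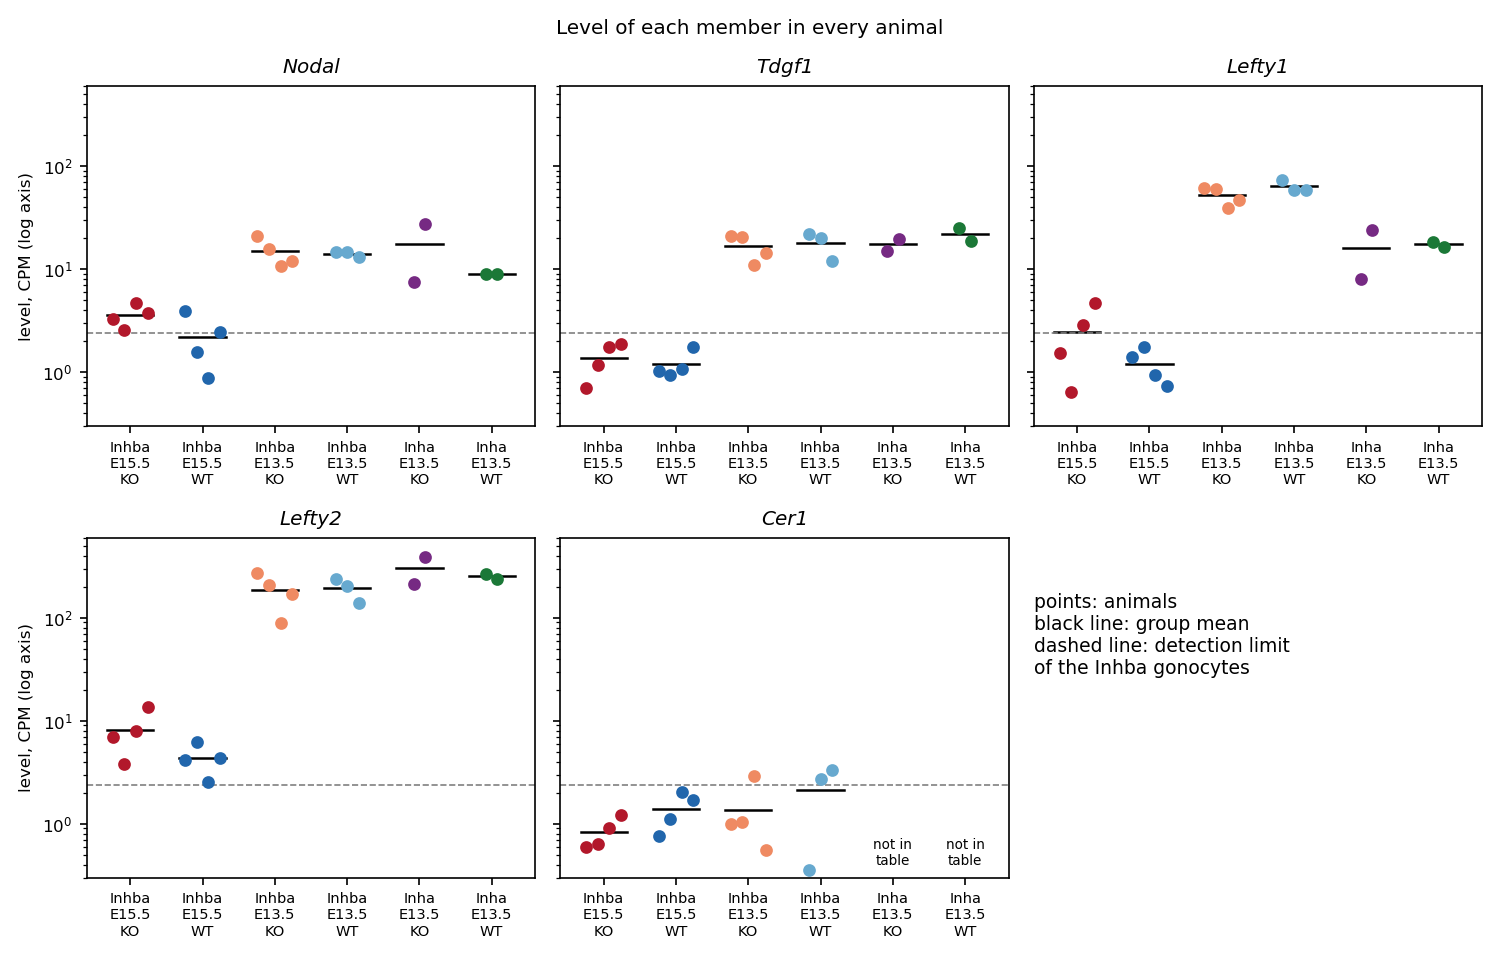
Levels of the 5 members in each animal, in cpm on a log axis, with the mean of each group as a line, for E15.5 and E13.5 Inhba animals and E13.5 Inha animals, KO left of WT. The E15.5 animals lie below all E13.5 animals for Nodal, Tdgf1, Lefty1 and Lefty2, and Cer1 stays between 0.354 and 3.31 cpm.

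Nodal, the ligand (ENSMUSG00000037171, chr10:61417972-61425338 of GRCm38), was measured at 3.31, 2.56, 4.65 and 3.79 cpm in E15.5 KO animals and at 3.95, 1.58, 0.888 and 2.43 cpm in E15.5 WT animals. At E13.5 it was at 21.0, 15.8, 10.8 and 12.01 cpm in KO animals and at 14.6, 14.8 and 13.2 cpm in WT animals. The ages did not overlap in either genotype, while the E13.5 KO animals lay on both sides of the WT animals. The mean was 3.58 ± 0.878 cpm in E15.5 KO (SD, n = 4) and 14.9 ± 4.57 cpm in E13.5 KO (SD, n = 4). In WT it was 2.21 ± 1.32 cpm at E15.5 (SD, n = 4) and 14.2 ± 0.896 cpm at E13.5 (SD, n = 3). Nodal had the smallest fall of the 4 members. Its log2 fold change from edgeR was -2.17 in KO (SE 0.355, adjusted p = 6.64e-05), the 336th lowest of all genes tested. In WT it was -2.87 (SE 0.380, adjusted p = 7.13e-06), the 172nd lowest and a level 7.30-fold lower.

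The 250 bases before the Nodal start (chr10:61417722-61417971, plus strand, RefSeq on GRCm38.p6) and before the Tdgf1 start (chr9:110946159-110946408, minus strand) are shown because both genes fell together. They were searched on both strands for CAGAC, a core of SMAD binding sites, and for AATCCACA, a FOXH1 site. The motifs can overlap by the letters CA. CAGAC or its reverse complement was in 42.2% of 32851 promoters of this length, and AATCCACA or its reverse complement in 0.718%. The capitals mark a CAGAC that lies 113 bases before the Tdgf1 start, and neither motif was in the Nodal window.
Nodal promoter: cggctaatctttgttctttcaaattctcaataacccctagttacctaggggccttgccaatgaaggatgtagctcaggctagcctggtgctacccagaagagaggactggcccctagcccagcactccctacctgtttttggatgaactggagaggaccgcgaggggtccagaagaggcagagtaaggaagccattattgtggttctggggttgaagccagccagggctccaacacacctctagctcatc
Tdgf1 promoter: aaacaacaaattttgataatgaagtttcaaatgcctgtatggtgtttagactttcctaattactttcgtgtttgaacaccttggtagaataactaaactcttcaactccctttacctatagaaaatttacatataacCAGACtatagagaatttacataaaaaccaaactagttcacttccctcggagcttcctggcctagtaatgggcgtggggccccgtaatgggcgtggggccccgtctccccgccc
The Cer1 window held a CAGAC 213 bases before the start and no AATCCACA. Such matches are matches of letters only.

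Tdgf1 (ENSMUSG00000032494, chr9:110939603-110946158) encodes the co-receptor that Nodal needs at the cell surface. It was measured at 0.709, 1.18, 1.78 and 1.87 cpm in E15.5 KO animals and at 1.02, 0.931, 1.08 and 1.74 cpm in E15.5 WT animals, all under the detection limit of the germ cell data. At E13.5 it was at 21.2, 20.6, 10.96 and 14.3 cpm in KO animals and at 22.2, 20.02 and 11.9 cpm in WT animals. The lowest E13.5 animals, KO replicate 3 and WT replicate 3, were thus still far above any E15.5 animal. Its difference between the ages on the log2 scale was -3.65 in KO (SE 0.332, edgeR adjusted p = 2.69e-07), the 46th lowest. In WT it was -4.15 (SE 0.347, edgeR adjusted p = 1.11e-07), the 38th lowest, a level 17.8-fold lower at E15.5.

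Lefty1 (ENSMUSG00000038793, chr1:180935022-180938400) encodes a secreted inhibitor and is itself switched on by Nodal signalling. It was at 1.54, 0.640, 2.88 and 4.73 cpm in E15.5 KO animals and at 1.40, 1.77, 0.935 and 0.740 cpm in E15.5 WT animals. At E13.5 it was at 62.0, 60.7, 39.2 and 46.5 cpm in KO animals and at 73.0, 58.8 and 59.1 cpm in WT animals. The highest E15.5 animal, KO replicate 4, is also the one nearest to E13.5 on the first principal component. Its difference between the ages on the log2 scale was -4.51 in KO (SE 0.438, edgeR adjusted p = 4.9e-07), the 11th lowest of all genes. In WT it was -5.91 (SE 0.479, edgeR adjusted p = 9.22e-08), the third lowest, a level 59.9-fold lower at E15.5.

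Lefty2 (ENSMUSG00000066652, chr1:180893108-180899103), the neighbouring inhibitor gene, had the highest mean level of the members at both ages, also per kilobase of exon. It was at 6.97, 3.84, 7.97 and 13.5 cpm in E15.5 KO animals and at 4.19, 6.19, 2.53 and 4.39 cpm in E15.5 WT animals. At E13.5 it was at 274, 207, 88.1 and 171 cpm in KO animals and at 238, 201 and 139 cpm in WT animals. Among the E13.5 animals KO replicate 3 was lowest, as it was for Nodal, Tdgf1 and Lefty1. Its difference between the ages on the log2 scale was -4.63 in KO (SE 0.425, edgeR adjusted p = 2.95e-07), the 8th lowest. In WT it was -5.70 (SE 0.458, edgeR adjusted p = 8.68e-08), the fourth lowest, a level 51.9-fold lower. By an exact two-sided permutation test of cpm, each of these 4 members had p = 0.0286 in KO and p = 0.0571 in WT, the smallest that animals of these numbers allow.

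Cer1 (ENSMUSG00000038192, chr4:82881751-82885148), which encodes the antagonist Cerberus, behaved otherwise. It was at 0.591, 0.640, 0.912 and 1.22 cpm in E15.5 KO animals and at 0.752, 1.12, 2.01 and 1.69 cpm in E15.5 WT animals. At E13.5 it was at 0.997, 1.04, 2.89 and 0.557 cpm in KO animals and at 0.354, 2.69 and 3.31 cpm in WT animals. All groups overlapped, and only 3 animals, all of E13.5, exceeded the detection limit. In WT its difference between the ages was -0.85 on the log2 scale (SE 0.622, edgeR adjusted p = 0.229), and without E13.5 WT replicate 1 it was -1.36 (adjusted p = 0.0377), which passed. In KO Cer1 was under the limit for testing, and over all genes with a count its log2 fold change was -0.85 (edgeR adjusted p = 0.227). The exact permutation p was 0.457 in each genotype.

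**Figure D2:**
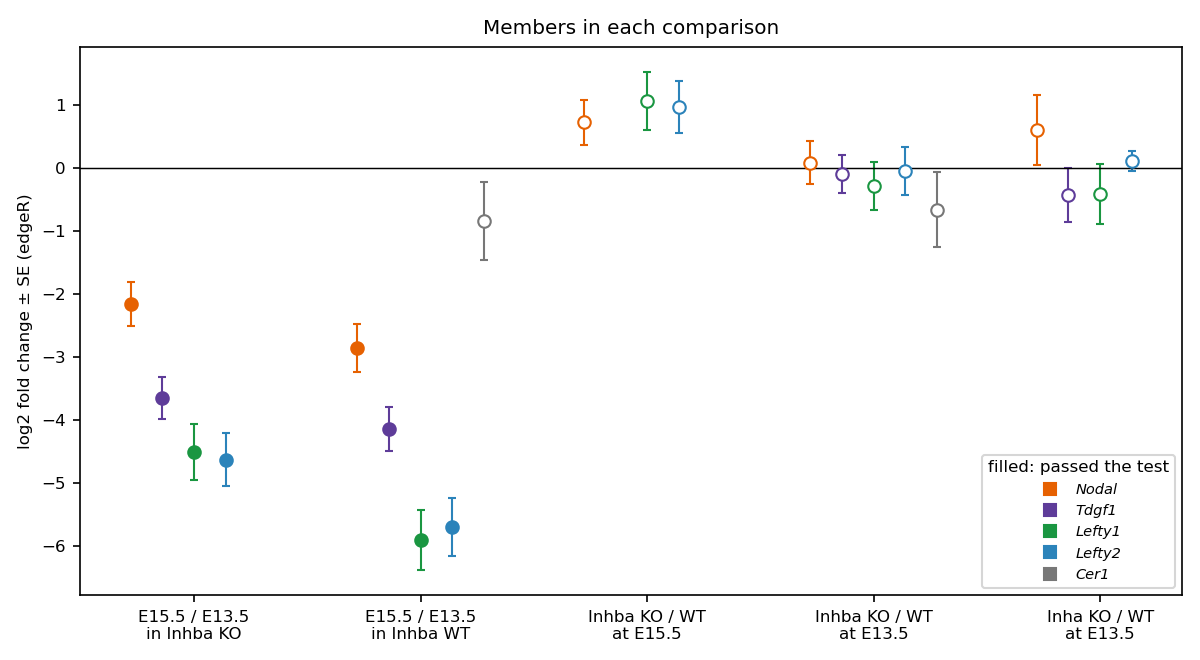
Log2 fold change of each member in 5 comparisons, with its SE as a bar, from edgeR's quasi-likelihood test. Filled points passed the test. Only the age comparisons hold filled points, which lie between -5.91 for Lefty1 in WT and -2.17 for Nodal in KO, and Cer1 is not filled in either comparison in which it was tested.

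The inhibitor genes Lefty2 and Lefty1 lay above their ligand at E13.5. Per kilobase of exon, mean levels in KO gonocytes were 70.9 cpm for Lefty2, 29.6 for Lefty1, 7.12 for Nodal, 6.39 for Tdgf1 and 0.789 for Cer1. In WT gonocytes of E13.5 they were 73.8 cpm per kilobase for Lefty2, 36.2 for Lefty1, 6.88 for Tdgf1, 6.77 for Nodal and 1.22 for Cer1. Nodal and Tdgf1 thus swapped places between the genotypes and lay within their spread of each other, and Cer1 was lowest in each. At E15.5 the levels were 3.09 for Lefty2, 1.71 for Nodal, 1.39 for Lefty1, 0.528 for Tdgf1 and 0.483 for Cer1 in KO gonocytes. In E15.5 WT gonocytes they were 1.66 cpm per kilobase for Lefty2, 1.06 for Nodal, 0.801 for Cer1, 0.688 for Lefty1 and 0.455 for Tdgf1. Lefty1, which was above Nodal at E13.5, was below it at E15.5 in both means, but not in every animal. It lay above Nodal in KO replicate 4 (2.69 against 1.81 cpm per kilobase). The same held in WT replicate 2 (1.01 against 0.756) and WT replicate 3 (0.532 against 0.424). In E15.5 WT the mean cpm of Nodal, Lefty1, Cer1 and Tdgf1 lay under the detection limit, as did those of Tdgf1 and Cer1 in KO. The order of these low means is therefore uncertain.

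Both Lefty genes fell together, and the share of Lefty2 among their reads moved by less than its SD. Of the summed Lefty1 and Lefty2 counts, Lefty2 took 78.8% ± 6.03 in E15.5 KO (SD, n = 4), 77.8% ± 5.52 in E15.5 WT (SD, n = 4), 76.7% ± 5.28 in E13.5 KO (SD, n = 4) and 74.7% ± 3.93 in E13.5 WT animals (SD, n = 3). The difference between ages was 2.11 percentage points in KO (exact permutation p = 0.6) and 3.13 in WT (exact permutation p = 0.457). Between KO and WT it was 0.957 at E15.5 (exact permutation p = 0.857) and 1.97 at E13.5 (exact permutation p = 0.571), in either case smaller than the SDs. The E15.5 shares rest on few counts, as in KO replicate 1, with 81.9% of 72 counts and a Wilson 95% interval of 71.5% to 89.1%. Intervals cover counting error only. In the Inha animals the share was 96.4% and 94.2% in KO and 93.5% and 93.5% in WT. The difference was 1.77 points (exact permutation p = 0.333, the smallest possible in this test, which did not use the littermate pairs). The Inha libraries were read at another length on another instrument and counted apart, so their shares were not compared with those of the Inhba animals. Reads from windows that are the same in both genes carry no information on which gene they came from.

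**Figure D3:**
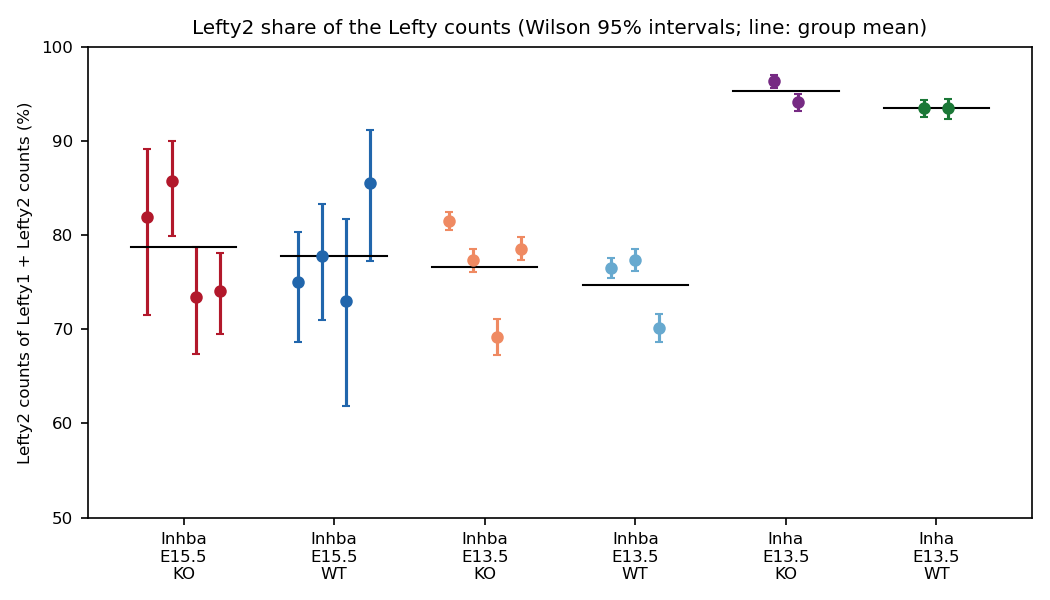
Share of Lefty2 in the summed Lefty1 and Lefty2 counts of each animal, in percent, with its Wilson 95% interval as a bar and the group mean as a line; the axis starts at 50%. The group means of the Inhba animals lie between 74.7% and 78.8%, and those of the Inha animals, sequenced apart, at 95.3% and 93.5%.

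The loss of Inhba was compared at each age to ask whether activin A changes Nodal signalling genes in gonocytes. At E13.5 none of the 5 members passed in the libraries labelled KO against those labelled WT, where 0% of 12739 genes did. In edgeR 257 of these genes had an unadjusted p under 0.05 and none of them was a member, while DESeq2 called 8 genes and limma-voom 1, again without a member. The log2 fold changes were 0.07 for Nodal (SE 0.341), -0.10 for Tdgf1 (SE 0.296), -0.29 for Lefty1 (SE 0.382), -0.05 for Lefty2 (SE 0.380) and -0.66 for Cer1 (SE 0.592), each with an edgeR adjusted p = 1.00. The genotypes overlapped in every member, with exact permutation p from 0.343 for Lefty1 to 0.971 for Lefty2. The signs for Nodal, Tdgf1 and Lefty2 turned when single animals were left out. Among these 7 animals KO replicates 3 and 4 held the lowest Nodal and Lefty1 levels, and KO replicate 1 the highest Nodal and Lefty2 levels. Mesenchyme markers summed to 15.8 to 30.1 cpm in KO and 3.00 to 12.03 cpm in WT animals of this age. Leydig markers summed to 11.3 to 14.8 cpm in KO and 6.29 to 6.998 cpm in WT animals, and erythroid markers to 6.70 to 11.96 cpm in KO and 3.01 to 3.89 cpm in WT animals, with 3 of 6 erythroid markers at 0 in WT. These lists did not overlap between the genotypes, while the germ cell, Sertoli, macrophage and endothelial sums did. Macrophage markers summed to 4.70 to 6.74 cpm in KO and 3.38 to 4.95 cpm in WT animals. Endothelial markers summed to 90.0 to 161 cpm in KO and 103 to 151 cpm in WT animals. How often other sets of genes separate these animals was not counted, and the part of the markers in the member levels was not tested. Of the endothelial markers only Pecam1 was kept in the Inha animals, where it alone gave 104 to 130 cpm in KO and 64.2 to 105 cpm in WT. With age its log2 fold change was -2.58 in Inhba KO and -2.81 in Inhba WT, while the other endothelial markers called rose. Whether the endothelial sum measures endothelial cells was not tested.

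At E15.5 the residual levels of Nodal, Lefty1 and Lefty2 had higher means in KO than in WT libraries, and no member passed the test. In edgeR 1 of 15209 genes was called at this age (0.00658%) and 1638 had an unadjusted p under 0.05, and DESeq2 called 25 genes and limma-voom 1, none of them a member. Lefty2 averaged 8.07 ± 4.02 cpm in KO and 4.32 ± 1.499 cpm in WT animals (SD, n = 4 each), with 3 of 4 KO animals above every WT animal. Its log2 fold change was 0.96 (SE 0.408, unadjusted p = 0.031, edgeR adjusted p = 0.459), and the exact permutation p was 0.114. Lefty1 averaged 2.45 ± 1.78 cpm in KO and 1.21 ± 0.463 cpm in WT animals, with a log2 fold change of 1.05 (SE 0.464, unadjusted p = 0.0374, edgeR adjusted p = 0.461). It entered the test through KO replicates 3 and 4 alone, the only animals of this age above the limit. Nodal averaged 3.58 ± 0.878 cpm in KO and 2.21 ± 1.32 cpm in WT animals, and entered through all 4 KO and 2 WT animals. Its log2 fold change was 0.72 (SE 0.358, unadjusted p = 0.0606, edgeR adjusted p = 0.468). By exact permutation of cpm, p was 0.286 for Lefty1 and 0.171 for Nodal, and all 3 genes overlapped between the genotypes. The highest Lefty1 and Lefty2 levels were those of KO replicate 4. Without that animal the log2 fold change of Lefty2 was 0.53, and without it or KO replicate 3 Lefty1 was no longer tested. For Nodal the value was 1.204 without WT replicate 1 and 0.45 without WT replicate 3.

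Tdgf1 and Cer1 were under the limit at E15.5. Over all genes with a count their log2 fold changes in KO against WT were 0.40 for Tdgf1 (edgeR adjusted p = 0.645) and -0.56 for Cer1 (edgeR adjusted p = 0.703). With E15.5 KO replicate 4 and E13.5 KO replicate 3 both left out, the log2 fold change of Lefty2 was 0.52 and that of Nodal 0.65, and Lefty1 no longer had enough animals above the limit. This omission was chosen after seeing the data. Mesenchyme markers summed to 23.1 to 81.7 cpm in E15.5 KO and 55.2 to 108 cpm in E15.5 WT animals, and their part was not tested.

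The fall with age was smaller in KO than in WT for each member that fell, and the interaction of genotype with age did not pass. It was called for 0% of 15841 genes in edgeR, with 966 genes at an unadjusted p under 0.05, and DESeq2 called 11 genes and limma-voom 0, without a member. The difference of log2 fold changes, KO minus WT, was 1.35 for Lefty1 (SE 0.606, unadjusted p = 0.0398, adjusted p = 0.772) and 1.02 for Lefty2 (SE 0.561, adjusted p = 0.774). It was 0.66 for Nodal (SE 0.509, adjusted p = 0.799), 0.46 for Tdgf1 (SE 0.458, adjusted p = 0.830) and 0.07 for Cer1 (SE 0.891, adjusted p = 0.991). Without the 2 KO animals that lay nearest to the other age, the difference was 0.56 for Lefty1, 0.33 for Lefty2, 0.45 for Nodal and 0.09 for Tdgf1. The falls in KO were then -2.37 for Nodal, -4.01 for Tdgf1, -5.29 for Lefty1 and -5.32 for Lefty2, all still called. The difference was smaller for all 4 without these 2 animals, and close to 0 for Tdgf1. Both were KO animals picked for lying toward the other age. Leaving them out favours a larger fall in KO for any gene that falls with age, so it cannot decide on the interaction.

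The loss of Inha, which removes inhibin and so a brake on activin, was compared in the 2 littermate pairs at E13.5. Of the 4 members tested none was called, while 35 of 9798 genes were (0.357%) and 913 had an unadjusted p under 0.05, and DESeq2 called 12 genes and limma-voom 45, without a member. Nodal was at 7.47 and 27.5 cpm in KO and at 8.95 and 8.95 cpm in WT animals. One KO animal was therefore below and the other above its littermate. The log2 fold change of Nodal was 0.59 (SE 0.555, edgeR adjusted p = 0.814). Tdgf1 was at 15.02 and 19.8 cpm in KO and at 25.3 and 18.6 cpm in WT animals (log2 fold change -0.43, SE 0.429, edgeR adjusted p = 0.839). Lefty1 was at 8.06 and 24.0 cpm in KO and at 18.5 and 16.5 cpm in WT animals (log2 fold change -0.42, SE 0.478, edgeR adjusted p = 0.865).

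Lefty2 was at 214 and 390 cpm in Inha KO and at 267 and 238 cpm in Inha WT animals, with a log2 fold change of 0.11 (SE 0.164, edgeR adjusted p = 0.913). KO replicate 2 had the highest Nodal, Lefty1 and Lefty2 levels of the 4 animals and KO replicate 1 the lowest, so that the WT animals lay between them. Lefty2 was again the most abundant member. The exact permutation test did not use the littermate pairs and with 2 animals a group cannot go below p = 0.333. It gave 1 for Nodal, Lefty1 and Lefty2 and 0.667 for Tdgf1. The fit held the littermate pair as a block. Without that block 0 genes and 0 members were called.

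The 4 members that fell with age also varied together among the 7 animals of E13.5. Across these animals the 6 pairs of log2 cpm had Pearson r from 0.74 for Nodal and Lefty1 to 0.94 for Tdgf1 and Lefty2. Tdgf1 and Lefty2 had r = 0.94 (exact permutation p = 0.00159, adjusted over the 6 pairs p = 0.00952) and Spearman rho = 0.96 (exact permutation p = 0.00278, adjusted p = 0.0167). Nodal and Lefty2 had r = 0.89 (exact permutation p = 0.00675, adjusted p = 0.0202) and rho = 0.86 (exact permutation p = 0.0238, adjusted p = 0.0357). Nodal and Tdgf1 had r = 0.81 (exact permutation p = 0.0119, adjusted p = 0.0238), with rho = 0.75 (exact permutation p = 0.0663, adjusted p = 0.0795). The pairs with Lefty1 had adjusted exact permutation p for r of 0.0533 to 0.0575 and did not pass on that measure. By rho, Tdgf1 and Lefty1 (rho = 0.89) and Lefty1 and Lefty2 (rho = 0.86) each had an adjusted exact permutation p = 0.0357. Nodal and Lefty1 had rho = 0.71 (adjusted exact permutation p = 0.0881). Without the 2 animals farthest from the median of the first gene, r was 0.76 for Tdgf1 and Lefty2, 0.62 for Nodal and Lefty2, 0.78 for Nodal and Tdgf1, and 0.46 for Lefty1 and Lefty2. KO replicate 3 was among the 2 left out in all 6 pairs. This animal had the lowest level of all 4 members and lay nearest to the E15.5 animals, and r was lower in 5 of the 6 pairs once the 2 animals were left out. The genotypes hold 4 and 3 animals, too few for an r within each. Other genes that fall with age were not correlated in this way, so these r have no background to be set against.

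**Figure D4:**
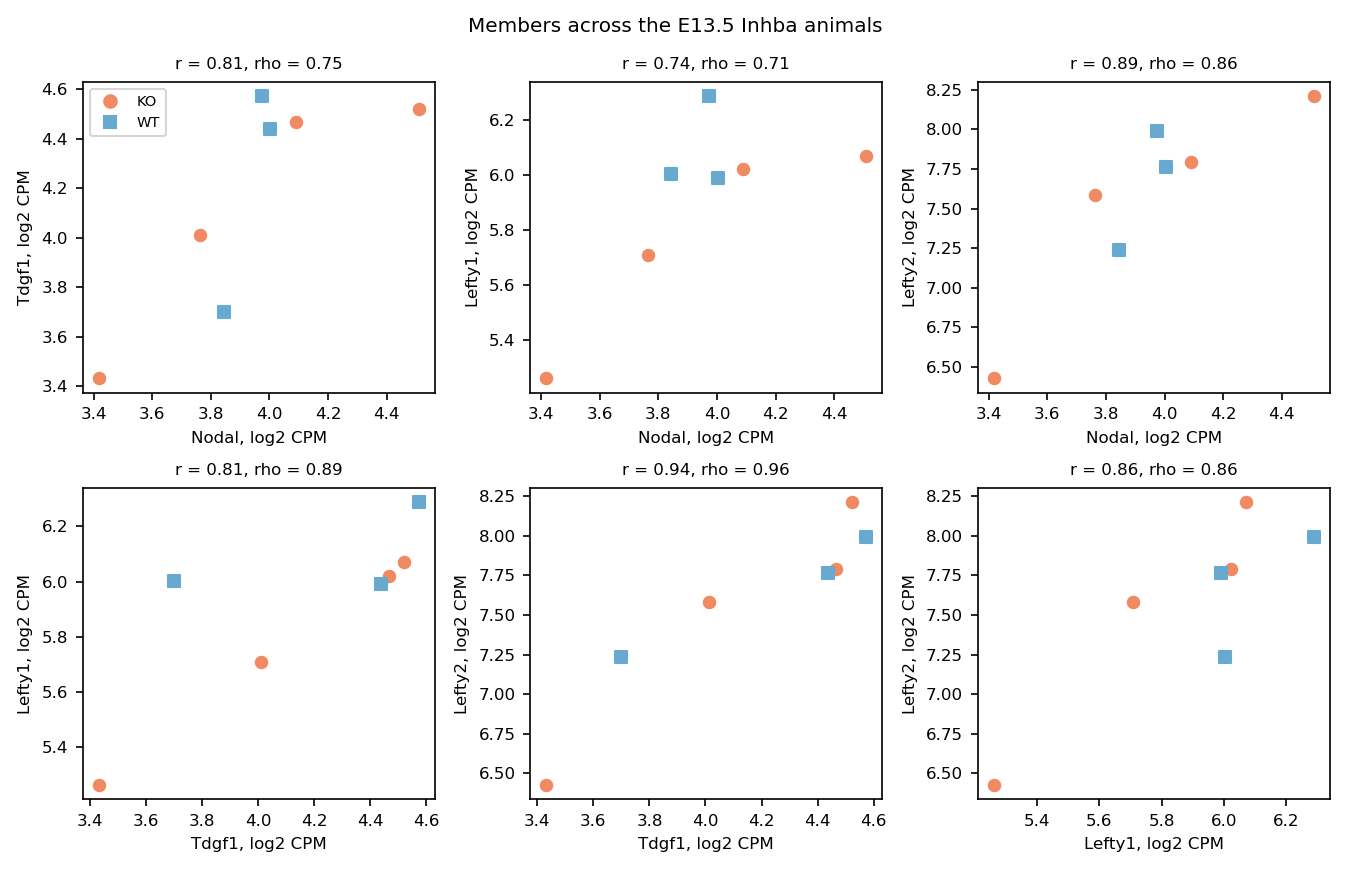
Levels of the 4 members that fell with age, plotted against each other in the 7 E13.5 Inhba animals in log2 cpm after TMM normalization, KO and WT in different colours. The points of all panels rise together, with r from 0.74 to 0.94, and KO replicate 3 is the low point of each.

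Other genes with a like course over the 15 Inhba animals were sought among 12765 genes by the root mean square difference of centred log2 cpm, as a description. The 2 Lefty genes were each other's near neighbours, at 0.381 log2 units. Among the genes closest to Lefty2 were L1td1 at 0.343, Lefty1 and Etv1 at 0.416. L1td1 encodes an RNA-binding protein of pluripotent cells, and Etv1 an ETS transcription factor. Among those closest to Lefty1 after Lefty2 were L1td1 at 0.4658 and Hist1h1d at 0.519. Tdgf1 was closest to Lgr4 at 0.305 and Sox15 at 0.345. Nodal was closest to Mta1 at 0.277 and Prr14 at 0.290, and Tdgf1 ranked only 1201st for it. All animals share the split by age, which alone makes many genes alike on this measure.

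The rest of the Nodal and activin pathway fell with age more often than it rose, by smaller steps than the Lefty genes. Of 33 listed genes in 5 lists, 27 were tested in KO, where 2 rose and 16 fell with a median log2 fold change of -0.74, against 0.02 over all genes. In WT 28 were tested, 3 rose and 17 fell, with a median of -0.93 against 0.05. Of all genes tested, 29.1% rose and 25.2% fell in KO, and 34% rose and 28.1% fell in WT. Among ligand genes Gdf3, a relative of Nodal, changed by -2.12 in KO (adjusted p = 6.07e-05) and -2.87 in WT (edgeR adjusted p = 5.12e-06). The proprotein convertases Furin and Pcsk6, which cleave the Nodal precursor, also fell, by 1.22 and 1.11 on the log2 scale in KO and by 1.59 and 1.17 in WT. Inhbb, the activin B subunit, rose in WT with a log2 fold change of 1.57 (edgeR adjusted p = 0.0444) and was under the limit in KO. It entered the WT test through 2 E15.5 animals alone, so that only a rise could be called. The paper reported Inhbb in somatic cells at both ages, and whether these counts came from such cells was not tested. Of the receptors, Acvr2b had -0.71 in KO and -1.13 in WT and was called in both, and Acvr1b had 0.59 in KO, where it was called, and 0.28 in WT, where it was not.

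Foxh1, which encodes the DNA-binding partner of SMAD2 and SMAD3 in Nodal responses, fell further than Nodal in both genotypes. It was at 0.236, 0.419, 0.528 and 0.656 cpm in E15.5 KO and at 0.752, 0.652, 0.468 and 0.423 cpm in E15.5 WT animals. At E13.5 it was at 13.2, 10.3, 5.17 and 5.42 cpm in KO and at 8.74, 8.08 and 7.42 cpm in WT animals. It was above the limit in E13.5 animals alone. The ages did not overlap, and the log2 fold change was -4.24 in KO (edgeR adjusted p = 2.45e-07) and -3.99 in WT (edgeR adjusted p = 3.11e-07). Smad3 had log2 fold changes of -1.28 in KO and -1.24 in WT, and Eomes, a T-box factor of the same responses, of -0.88 and -0.86. All 3 were called in both genotypes, while Smad2 and Smad4 changed by less than 1.5-fold.

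Of 8 other inhibitor genes, 0 rose and 4 fell in KO, and 1 rose and 4 fell in WT. Of 8 genes for repressors of SMAD2/3 transcription, 1 rose and 5 fell in KO, and 1 rose and 6 fell in WT. Over all genes tested, 29.1% rose and 25.2% fell in KO, and 34% rose and 28.1% fell in WT. Smad7, which encodes an inhibitory SMAD, changed by -1.30 on the log2 scale in KO and -1.78 in WT, and Smad6 by -1.18 in each. Ncln, whose product antagonises Nodal in zebrafish, changed by -1.03 in KO and -1.36 in WT. Dand5, a relative of Cer1, had -0.94 in KO and -0.87 in WT and was called in both, in KO through E13.5 animals alone. Fst, which encodes the activin-binding follistatin, rose in WT at 1.02 and had 0.23 in KO, and this difference between genotypes did not pass the interaction test. Skil, a co-repressor of SMAD transcription, had -1.49 in KO and -1.61 in WT, and Drap1, a co-repressor that limits FOXH1 in the mouse embryo, had -1.55 and -1.87. Ppm1a, a SMAD phosphatase, had -0.74 and -1.18, and Trim33, a SMAD4 antagonist, had -0.67 and -0.95.

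With age 29.1% of all genes tested rose and 25.2% fell in KO, and 34% rose and 28.1% fell in WT. Of 10 listed target genes other than the members, 6 were tested in each genotype, of which 3 fell and 1 rose. Among those that fell, Lhx1 changed by -2.79 on the log2 scale in KO and -4.84 in WT, and Otx2 by -2.85 and -3.76. The exception was Fgf8, a growth factor gene, which rose by 2.35 in KO and 2.25 in WT. Fgf8 was above the limit in E15.5 animals alone, so that only a rise could be called. Lhx1, a LIM homeobox gene, did not overlap between the genotypes at E15.5, where the share of all genes without overlap was not counted. It was at 9.69, 7.02, 12.8 and 27.96 cpm in KO and at 4.89, 5.21, 2.85 and 3.75 cpm in WT animals, with a log2 fold change of 1.85 that did not pass in edgeR (adjusted p = 0.276) or limma-voom (adjusted p = 0.338) and passed in DESeq2 (adjusted p = 0.00014). Its interaction of genotype with age was 2.00 in edgeR (adjusted p = 0.695), and it passed in DESeq2 alone (adjusted p = 0.04996). Lhx1 was picked out after its values were seen. Its highest level at E15.5 was that of KO replicate 4, the animal nearest to E13.5 on the first principal component. In edgeR and limma-voom none of the pathway or target genes was called in KO against WT at either age, in the interaction or in the Inha comparison, and in DESeq2 Lhx1 alone was. In the Inha comparison 23 of the 33 pathway genes were tested.

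Among 12 early germ cell and pluripotency genes, 1 rose and 8 fell in KO, and 2 rose and 10 fell in WT. The shares of all genes that rose and fell were 29.1% and 25.2% in KO and 34% and 28.1% in WT. Esrrb, a pluripotency factor, had -2.26 in KO and -2.76 in WT, and Kit, the stem cell factor receptor, had -3.21 and -2.70. Nanog, a further pluripotency factor, had -2.43 and -2.83, and Prdm14, an early germ cell regulator, had -2.55 and -2.67. Dppa4 went the other way, with 1.19 and 1.32. In the Inha comparison Utf1 of this list rose by 1.08 (edgeR adjusted p = 0.000192). Of 9 germ cell markers, 6 rose and 2 fell in KO and 5 rose and 2 fell in WT, among the risers the piRNA pathway gene Piwil4, with 5.12 in KO and 5.43 in WT. Somatic markers moved too. In KO 5 of 7 Sertoli markers tested fell and 3 of 6 mesenchyme markers rose, and in WT 1 of 6 Sertoli markers and 4 of 5 mesenchyme markers rose. Of the Leydig, endothelial, macrophage and erythroid markers, 3 rose and 3 fell in KO and 5 rose and 2 fell in WT. Many of these somatic markers were above the limit at 1 age alone, which fixes the direction of a call. Their part in the age differences of the members was not tested.

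**Figure D5:**
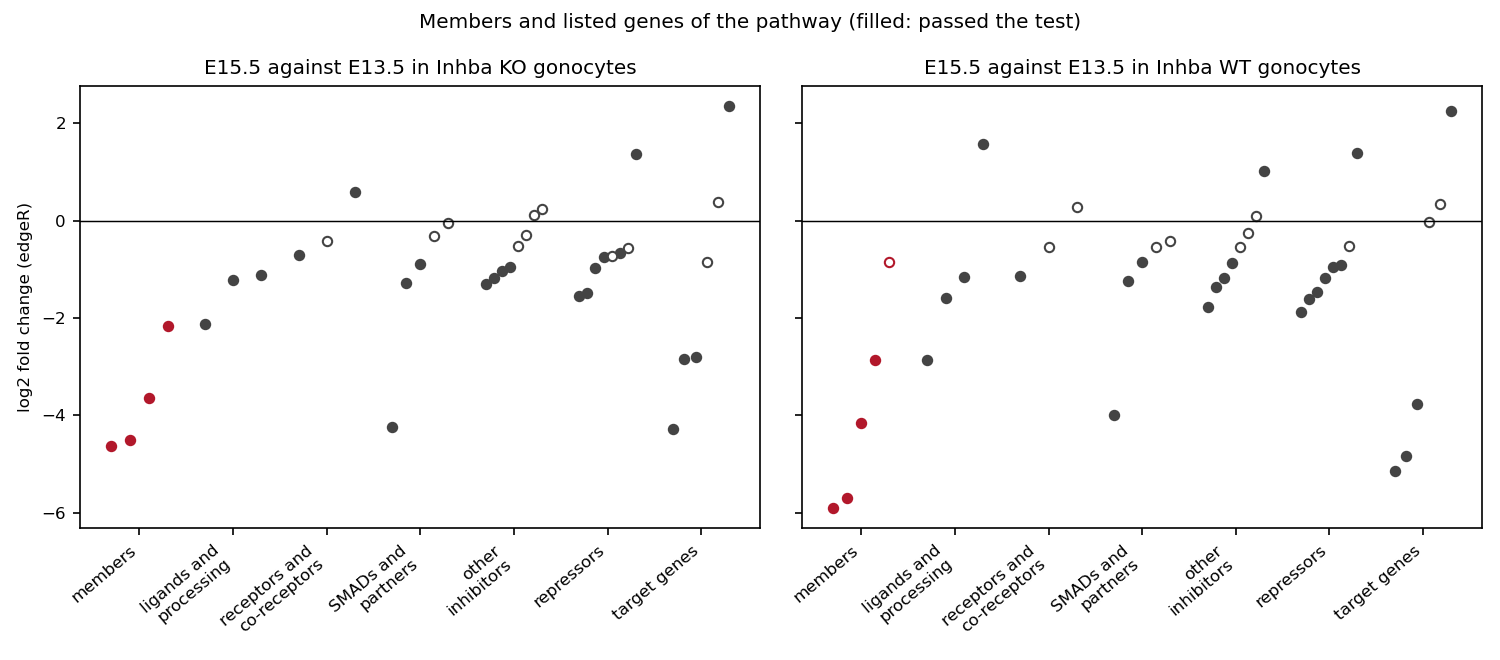
Log2 fold change from edgeR at E15.5 against E13.5 for the genes of each list, in KO and in WT, with 1 point for each gene tested, filled where it was called. The members lie between -5.91 and -0.85, and the median of the 5 pathway lists together is -0.74 in KO and -0.93 in WT.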

How the data were processed

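Gonocyte RNA had been amplified by SPIA and sequenced with 80 base (Inhba) or 100 base (Inha) single-end reads. The authors aligned reads to GRCm38 with STAR 2.5.2b, counted them with featureCounts (Subread 1.5.2) and deposited the raw counts. Quality tools in the submitters' processing notes are Picard 2.26.3, FastQC 0.11.5 and MultiQC 1.0. Whether counting used strand was not given in the sources used here. A single column per animal stood for 2 records, and 0 columns went unused. The Inha table lacked mitochondrial genes and genes under 2 cpm in 2 animals. The authors excluded an E13.5 WT gonocyte sample. Titles number separate animals, and per the methods the paired testes of 1 embryo were 1 replicate. In the Inha titles littermates share the number before the point. E15.5 KO replicate 1 and E15.5 WT replicate 2 also share such a number, as do E15.5 KO replicates 2 and 3. Whether these were littermates was not given, and the Inhba fit held no litter term.

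All Inhba animals entered 1 fit with edgeR 4.0.16 in R 4.3.3 (robust quasi-likelihood test, TMM normalization, a mean per group) over genes above the detection limit of 2.391 cpm in at least 2 animals compared. Inha animals were fitted apart over genes at 2 cpm or more in at least 2 animals, with the littermate pair as a block. The pairing is given in the sample titles, and the paper also treated these animals as littermate pairs. Deviations of littermates had r = 0.256, necessarily the same value for both pairs with 2 animals a group. Calls needed a Benjamini-Hochberg adjusted p under 0.05, over all genes, and a change above 1.5-fold. SEs are the size of the log2 fold change over the root of F. CPM used the animal's total, and log2 CPM a prior count of 2. The 24 exact permutation tests of single members were two-sided and not adjusted. Alternatives used DESeq2 1.42.0 and limma 3.58.1, other filters, size factors and omitted animals. Python 3.11 ran numpy 2.4.6, scipy 1.17.1, pandas 2.3.3, matplotlib 3.10.9 and biopython 1.88. The fit was tested on simulated data. Sequence comparisons used GRCm38 transcripts, and exon lengths the union of GENCODE exons. Of 5 promoters sought in RefSeq, 3 matched.

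Named genes were the members, up to 4 called genes of each list by smallest p in a comparison, and the 5 genes most like each member by root mean square difference, of which some are printed. A few genes and a sequence that these rules would give are not reported here. The lists were ligands, receptors, SMADs and partners, inhibitors, repressors, targets, early germ cell genes and markers of germ, Sertoli, Leydig, mesenchyme, endothelial, macrophage and erythroid cells. Members, lists and thresholds were chosen with earlier results of these data known.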

Additional observations from a re-analysis of the deposited data

How the results depend on the processing

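The falls of Nodal, Tdgf1, Lefty1 and Lefty2 with age kept their direction and their call in both genotypes under every alternative run, and Cer1 was called in WT only without E13.5 WT replicate 1. The number of genes called depended more on the settings. Without a filter on low counts, 12094 genes were called with age in KO and 14908 in WT, against 7975 and 9555, and the median log2 fold change of all genes moved to 0.20 and 0.45. The genes called in KO against WT at E13.5 were 8 in DESeq2, 1 in limma-voom, 2 with only these groups fitted and 1 without the 2 KO animals nearest to the other age. DESeq2 called 25 genes at E15.5, 11 in the interaction and 12 in the Inha comparison. In the Inha fit without the pair block 0 genes were called, against 35. Leaving out single animals gave 7315 to 8366 called genes with age in KO, 8794 to 9777 in WT, 1 to 3 at E15.5, 0 to 3 at E13.5 and 0 to 2 in the interaction. Leaving out an Inha animal broke its pair, so those fits also dropped the block and left 1 animal in a group, assumed to vary like the other group. They called 0 to 22 genes. The difference in Lefty2 share ran over -0.376 to 3.89 percentage points with age in KO, 0.551 to 4.75 in WT, -1.35 to 3.54 at E15.5, -0.283 to 4.46 at E13.5 and 0.674 to 2.87 for Inha. Small log2 fold changes turned. At E13.5 they ran over -0.14 to 0.22 for Nodal, -0.32 to 0.078 for Tdgf1 and -0.30 to 0.20 for Lefty2. Without the 2 animals together the log2 fold change of Tdgf1 was 0.078 and that of Lefty2 0.20. The Cer1 interaction ran over -0.42 to 0.66 and was -0.17 in limma-voom. In the Inha fits without an animal and without the block they ran over -0.33 to 1.51 for Nodal, -1.19 to 0.35 for Lefty1 and -0.30 to 0.52 for Lefty2. The causes were not tested. The omission of 2 animals together was chosen after seeing the data. At E15.5 low counts limit what can be said of Tdgf1, Lefty1 and Cer1.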
